A study of Mus musculus with 8 samples.

Results

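The organic anion transporting polypeptides (Slco genes), the organic ion carriers of the Slc22a family and the multidrug resistance-associated and related pumps of the Abcc family were followed in mouse liver RNA. Members were chosen by gene symbol, as symbols that start with Slco, Slc22a or Abcc and a digit. This rule uses no measured values, though it was set with earlier results of these data known. The rule took 51 of the 56691 genes of the deposited table, 15 Slco, 26 Slc22a and 10 Abcc genes. The 8 liver libraries came from wild-type (WT) C57BL/6J mice. From the age of 6 weeks both groups were given HFD-CDAA, a fat-rich diet that lacks choline and holds defined amino acids, during 4 weeks, and they were killed after a short fast. The control group (plive-Con, 4 libraries) had the plasmid plive-Con injected into the tail vein by the hydrodynamic method, in which a large volume drives DNA into liver cells. The other group (plive-Tet1, 4 libraries) had plive-Tet1, a plasmid meant to overexpress, in hepatocytes per the series title, Tet1, an enzyme that oxidises 5-methylcytosine. No group on another diet is compared here, and the sources used here do not name the promoter of the plasmid. For plive-Tet1 2, 3 and 4 the treatment label reads Tet2, Tet3 and Tet4, so the groups follow the sample titles, which read Tet1.

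Hepatocytes take bile acids, bilirubin, hormones, drugs and toxins from the blood and pass them, often after conjugation, to bile or back to blood. Slco and Slc22a proteins are membrane carriers that mostly serve uptake on the blood side, while Abcc proteins use ATP to export conjugates, Abcc2 into bile and Abcc3 and Abcc4 back to blood. In rodent liver, several of these genes are known to differ between the sexes and to respond to growth hormone and to nuclear receptors that sense drugs, bile acids and fatty acids.

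Library totals lay between 15885113 and 19850800 counts. The gene Tet1 itself had 1, 9, 6 and 5 counts in plive-Con 1 to 4 and 9, 8, 12 and 5 counts in plive-Tet1 1 to 4, and an exact two-sided permutation test over the 70 assignments gave a p of 0.371, where the smallest possible is 0.0286. The direction of every difference below is therefore that of libraries labelled plive-Tet1 against libraries labelled plive-Con. Hepatocyte markers (Alb, Apoa1, Ttr, Tat, Cps1, Hnf4a) summed to between 65760 and 86490 CPM (counts scaled by the TMM-adjusted library size) with plive-Con and between 60620 and 85810 CPM with plive-Tet1. The kidney tubule markers Umod, Slc12a1 and Kap had no count in any library, and their list of 5 summed to at most 0.755 CPM. plive-Con 4 stands apart for many genes of this set, and for many members the fold change is given with and without it. For genes outside the set it is given with all 8 libraries. Transcripts of the Y-linked gene Ddx3y were counted in all 8 libraries, 143 to 351 counts each, while Xist had between 0 and 4 counts, so the libraries do not differ in this mark of sex.

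Of the 51 genes, 30 had enough counts to be tested, 6 Slco, 15 Slc22a and 9 Abcc genes. None of the 30 passed the test of plive-Tet1 against plive-Con livers. The quasi-likelihood test of edgeR, with Benjamini-Hochberg adjustment across the 14533 genes tested, called 0 of the 30 at an adjusted p of 0.05, where it called 0% of all tested genes. At an unadjusted p under 0.05 it found 0 of the 30 and 4.07% of all tested genes (1.91% higher and 2.16% lower with plive-Tet1), and DESeq2 and limma on log2(FPKM + 0.5) also found 0 members at that unadjusted value. Log2 fold changes, always of plive-Tet1 over plive-Con, were above 0 for 10 and below 0 for 20 of the 30, where 52% of all tested genes were above 0. Their median was -0.09, and that of all tested genes was 0.01. Medians were -0.13 for the Slco, -0.12 for the Slc22a and 0.02 for the Abcc genes.

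**Figure D1:**
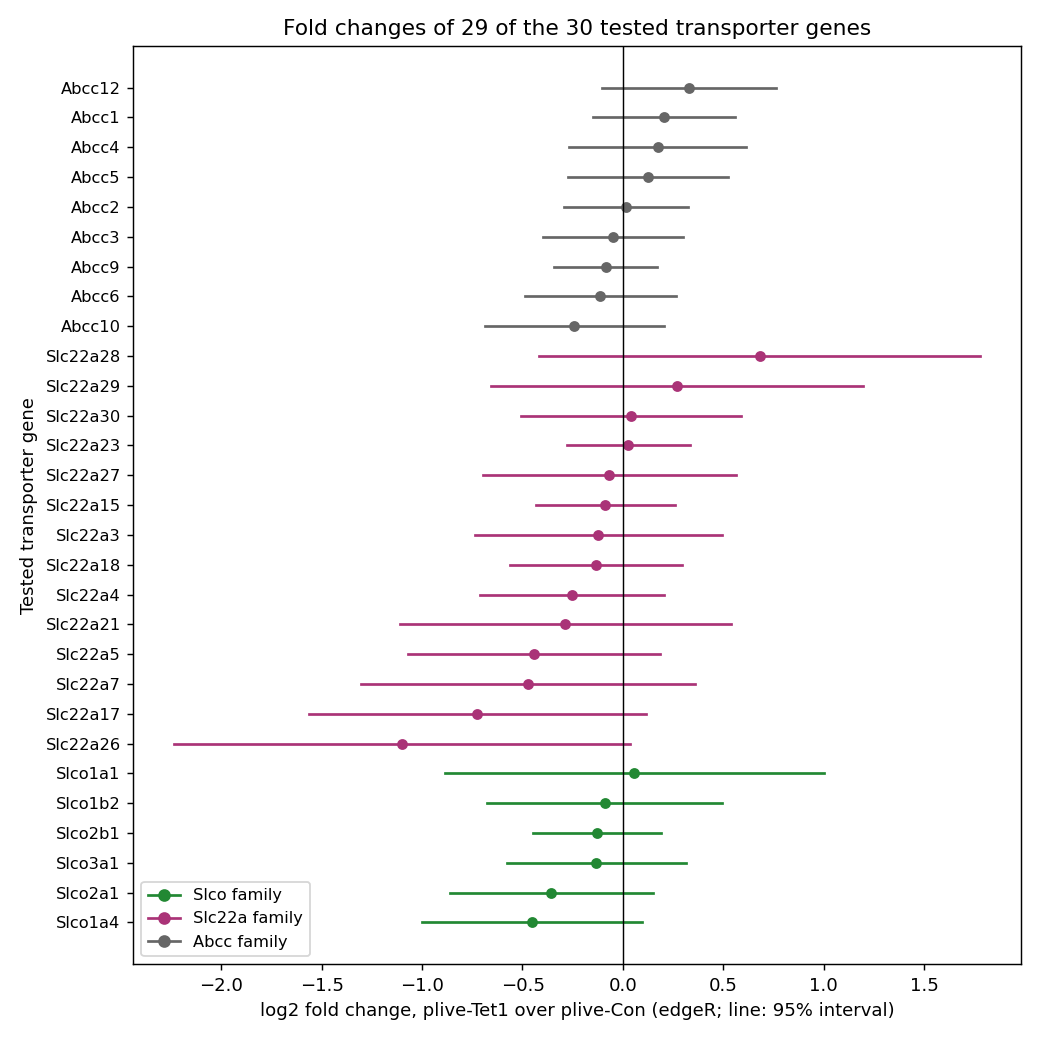
Log2 fold change (x axis) between plive-Tet1 and plive-Con of 29 of the 30 tested transporter genes, with points for the edgeR estimate over 8 libraries and lines for its 95% interval, coloured by family. Every interval covers 0, and the widest are those of Slc22a26 (-1.10) and Slc22a28 (0.68), with 377 and 145 counts over the 8 libraries.

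Expression was concentrated in few genes. On the FPKM scale (fragments per exon length and library total), 20 of the 51 genes had a mean of at least 1 over the 8 libraries. Among those described here the highest means were those of Slco1b2 (63.9 FPKM), Abcc2 (59.7), Slc22a18 (44.6) and Abcc3 (42.7). A group of 6 followed between 12.8 and 18.7 FPKM, Slco2b1, Slc22a23, Abcc6, Slc22a30, Slc22a5 and Slco1a1. Among these genes, neighbours in that order overlapped over the libraries, for example Slco1b2 (44.57 to 95.87 FPKM) and Abcc2 (48.34 to 67.61 FPKM), with the exception of Abcc3 (34.30 to 51.57 FPKM) and Slco2b1 (15.30 to 22.16 FPKM). Slco1b2 held 57.1% of the summed FPKM of the Slco genes and Abcc2 46.5% of that of the Abcc genes, as means over 8 libraries. The summed FPKM was 113 ± 28.1 with plive-Con and 107 ± 25.8 with plive-Tet1 for the Slco genes. It was 127 ± 6.20 and 130 ± 17.4 for the Abcc genes (SD, n = 4 each). In both families the difference between the group means was smaller than the SD of either group.

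**Figure D2:**
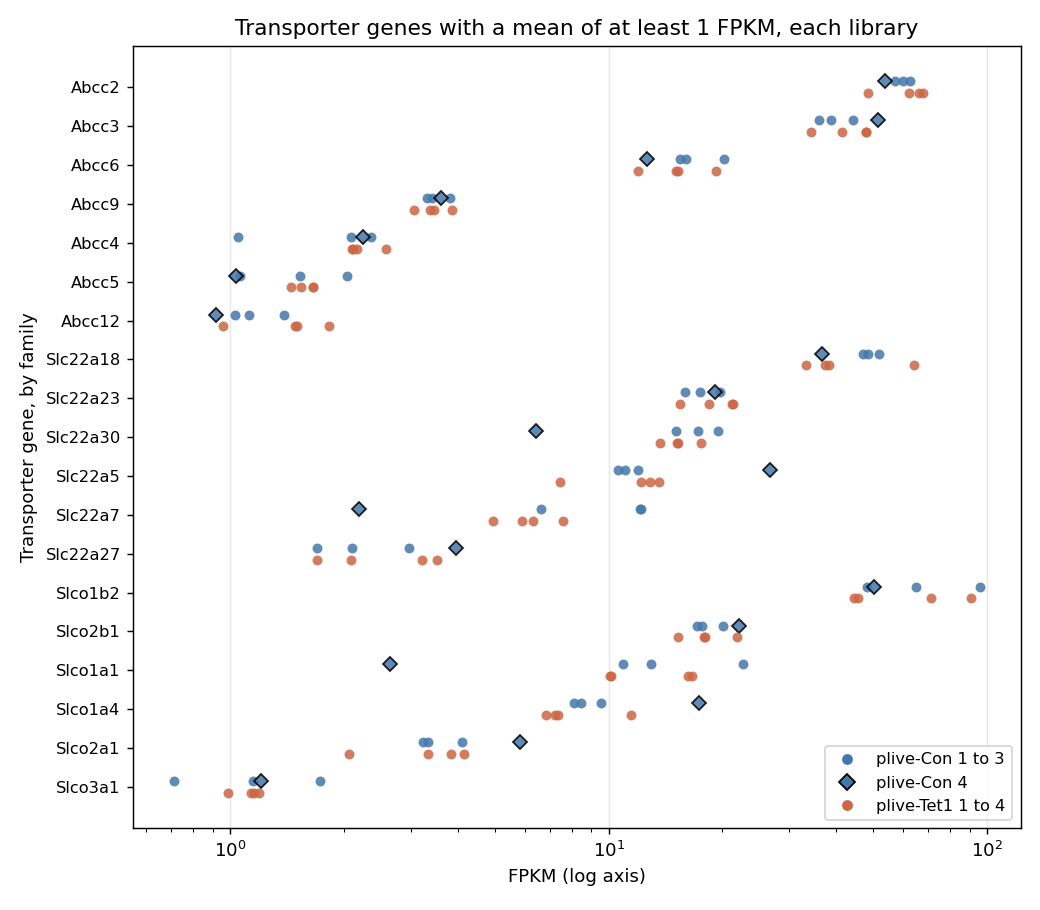
FPKM on a log axis (x axis) of 19 of the 20 transporter genes with a mean of at least 1 FPKM (y axis, by family), 1 point per library, with plive-Con 4 as an outlined diamond. Group values overlap for all 19 genes drawn, and plive-Con 4 lies apart for Slco1a1 (2.65 FPKM), Slc22a7 (2.19), Slc22a30 (6.43), Slc22a5 (26.64) and Slco1a4 (17.32).

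Among the Slco genes, Slco1b2, the main liver carrier for the uptake of bilirubin conjugates, bile acids and many drugs, measured 48.16, 64.88, 95.87 and 50.26 FPKM in plive-Con 1 to 4. It measured 70.94, 45.55, 44.57 and 90.85 FPKM in plive-Tet1 1 to 4. Each group thus held a pair of libraries at 64.88 FPKM or more and a pair at 50.26 or less. The log2 fold change was -0.09 ± 0.27 (SE), with a 95% interval from -0.68 to 0.49. Slco1a1, a further uptake carrier of the hepatocyte's blood side with male-biased expression in mice, measured 10.95, 12.96, 22.65 and 2.65 FPKM with plive-Con and 16.24, 10.15, 10.07 and 16.59 FPKM with plive-Tet1. Its range over the libraries was 8.55-fold, wider than in 99.3% of the 10924 tested genes with a mean of at least 1 FPKM, and the lowest value was that of plive-Con 4. The groups overlapped, and the log2 fold change was 0.06 ± 0.44 (SE) with all libraries and -0.28 ± 0.27 without plive-Con 4.

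The 4 libraries with the highest Slco1b2, plive-Con 2 and 3 and plive-Tet1 1 and 4, were also the 4 with the highest Slco1a1, and the 4 with the highest Slc22a30. Of all 10924 genes, 5.06% had this same set of 4, so 3 of the 20 members are given as a description of these libraries and not as a property of the set. Slco1a4, which carries bile salts and steroid conjugates in liver and at the blood-brain barrier, had another order. It measured 8.10, 8.46, 9.54 and 17.32 FPKM with plive-Con and 7.37, 6.82, 7.20 and 11.47 FPKM with plive-Tet1, highest in plive-Con 4, where Slco1a1 was lowest. The log2 fold change of Slco1a4 was -0.45 ± 0.25 (SE, edgeR unadjusted p 0.0986) and -0.12 ± 0.19 without plive-Con 4.

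These 3 genes are neighbours. On GRCm39 chromosome 6, 6 Slco genes and Abcc9 lie between 141470094 and 142648041, among them Slco1b2 (ENSMUSG00000030236, 141575244 to 141632372, plus strand), Slco1a4 (ENSMUSG00000030237, 141751166 to 141801925, minus strand) and Slco1a1 (ENSMUSG00000041698, 141853008 to 141892688, minus strand). The other Slco genes there were near or at the detection floor. Slco1c1, a thyroid hormone carrier of brain vessels, had between 0 and 4 counts per library, Slco1a5 had 1 count in all, and Slco1a6 had none. The windows from 250 bases before to 50 after the start site of the 3 expressed neighbours are shown from RefSeq (build GRCm38.p6). These genes share a locus, and apart from plive-Con 4, Slco1b2 and Slco1a1 ranked the libraries in the same order. Slco1a4 ranked them in another. Capitals mark 3 short motifs searched on both strands, AGGTCA (the nuclear receptor half-site), TTCNNNGAA (the STAT site) and GTTAAT (an HNF1 half-site), and no marked match overlaps another.
Slco1a1 (chr6:141946913-141947212, minus strand): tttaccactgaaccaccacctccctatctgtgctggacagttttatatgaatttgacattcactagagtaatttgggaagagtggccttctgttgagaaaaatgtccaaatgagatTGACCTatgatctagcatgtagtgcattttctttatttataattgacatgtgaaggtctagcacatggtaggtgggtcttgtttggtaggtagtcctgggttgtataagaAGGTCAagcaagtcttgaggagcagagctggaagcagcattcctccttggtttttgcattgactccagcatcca
Slco1a4 (chr6:141856171-141856470, minus strand): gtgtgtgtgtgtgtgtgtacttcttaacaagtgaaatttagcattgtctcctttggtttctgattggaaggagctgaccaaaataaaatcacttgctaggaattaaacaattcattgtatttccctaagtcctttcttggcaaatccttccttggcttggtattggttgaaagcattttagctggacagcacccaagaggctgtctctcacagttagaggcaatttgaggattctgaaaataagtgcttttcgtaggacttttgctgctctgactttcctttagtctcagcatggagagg
Slco1b2 (chr6:141629268-141629567, plus strand): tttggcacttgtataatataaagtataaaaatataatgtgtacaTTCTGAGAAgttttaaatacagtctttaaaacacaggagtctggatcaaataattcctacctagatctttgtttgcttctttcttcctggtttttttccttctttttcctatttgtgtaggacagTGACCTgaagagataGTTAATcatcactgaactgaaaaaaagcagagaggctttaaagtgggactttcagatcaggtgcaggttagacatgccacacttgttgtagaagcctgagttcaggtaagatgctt
The Slco1a1 window held AGGTCA at -134 (minus strand) and -24, counted from the start site. The Slco1b2 window held AGGTCA at -81 (minus strand), TTCNNNGAA at -206 and GTTAAT at -66. The Slco1a4 window held none of the 3. Of 32851 RefSeq windows of this length, 16.3% held AGGTCA, 8.30% TTCNNNGAA and 7.10% GTTAAT. Of the 48 windows of the 41 members in the table, 16.7%, 20.8% and 8.33% did. A match is a run of letters and not a shown binding site.

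**Figure D3:**
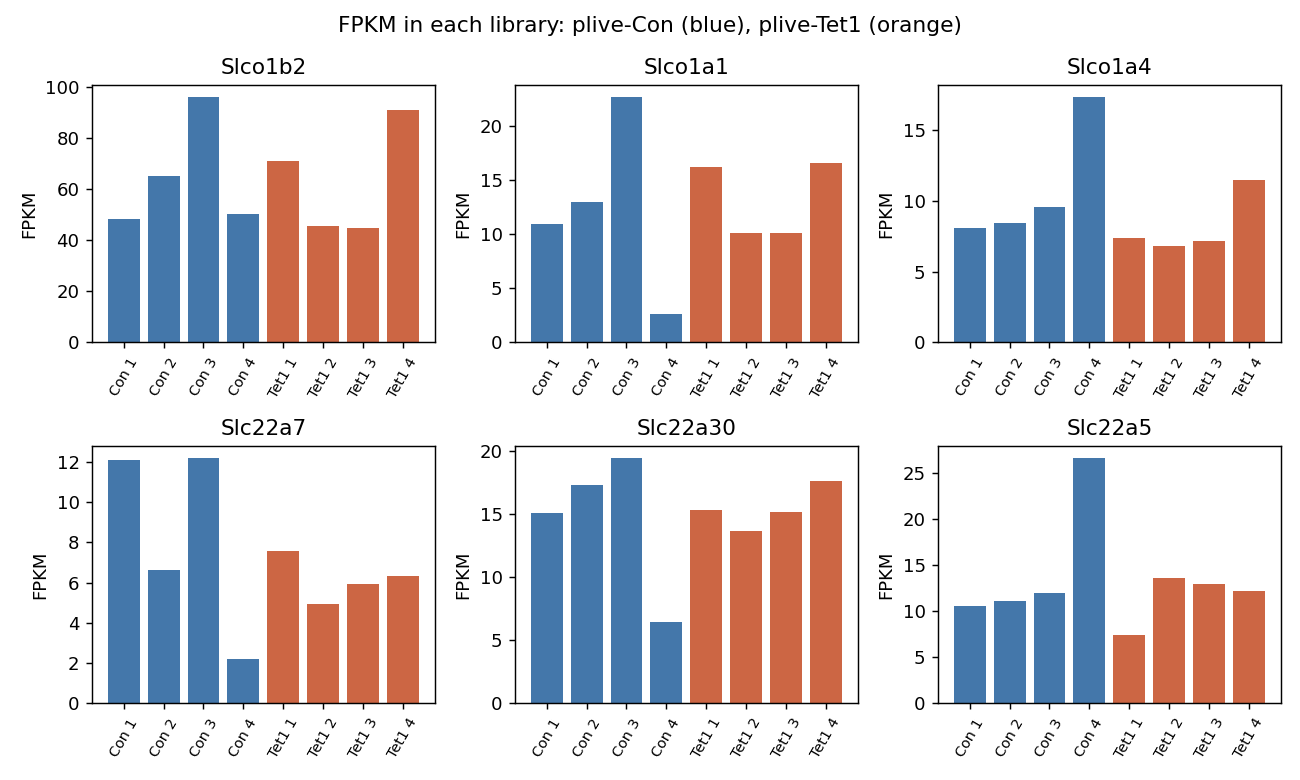
FPKM (y axis, from 0) of 6 transporter genes in each of the 8 libraries (x axis), 1 bar per library, plive-Con in blue and plive-Tet1 in orange. Slco1b2, Slco1a1 and Slc22a30 share their 4 highest libraries, and plive-Con 4 has the lowest bar for Slco1a1 (2.65), Slc22a7 (2.19) and Slc22a30 (6.43) and the highest for Slco1a4 (17.32) and Slc22a5 (26.64).

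Slco2b1, an organic anion carrier found in many tissues, measured 17.14, 17.62, 20.02 and 22.16 FPKM with plive-Con and 15.30, 17.88, 21.88 and 17.96 FPKM with plive-Tet1. The groups overlapped, and its log2 fold change was -0.13 ± 0.15 (SE) with all libraries and -0.04 ± 0.15 without plive-Con 4. Slco2a1, the prostaglandin transporter, known from endothelium, measured 3.23, 3.34, 4.10 and 5.83 FPKM with plive-Con and 2.06, 3.84, 4.16 and 3.33 FPKM with plive-Tet1. The groups overlapped, and the log2 fold change was -0.36 ± 0.23 (SE) with all libraries and -0.13 ± 0.21 without plive-Con 4. Markers of sinusoidal endothelium (Stab2, Clec4g, Kdr, Gpr182, Lyve1) summed to between 163 and 215 CPM with plive-Con and between 125 and 186 CPM with plive-Tet1. Of these 5, 4 had a log2 fold change below 0 and 1, Lyve1, above it (0.25), with a median of -0.31. An edgeR unadjusted p under 0.05 was found for 2, Gpr182 and Kdr, and for 4.07% of all tested genes. The part of these markers in the Slco2a1 values was not tested. In whole liver, fewer cells of a type and less RNA per cell cannot be told apart. Slco3a1, a widely expressed prostaglandin and hormone carrier, measured 1.15, 1.73, 0.71 and 1.21 FPKM with plive-Con and 1.16, 1.19, 1.14 and 0.99 FPKM with plive-Tet1. The plive-Con values enclosed those of plive-Tet1, and the log2 fold change was -0.13 ± 0.21 (SE).

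Among the Slc22a genes, a pair on chromosome 17 was hardly expressed. Slc22a2, the renal organic cation carrier, had 3 counts over all libraries. Slc22a3, a cation carrier of extraneuronal tissues, measured between 0.53 and 1.45 FPKM, and Plg, a gene of the opposite strand, overlaps it, so without a stated strand setting the reads cannot be told apart.

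Slc22a5, which imports the carnitine used in mitochondrial fatty acid oxidation, was high in a single library. It measured 10.60, 11.05, 11.97 and 26.64 FPKM with plive-Con and 7.43, 13.62, 12.90 and 12.19 FPKM with plive-Tet1. Without plive-Con 4 the log2 fold change was 0.00 ± 0.19 (SE, edgeR adjusted p 0.9999), against -0.44 ± 0.29 with it (adjusted p 1.0). Slc22a4, the ergothioneine carrier, lies near Slc22a5 on chromosome 11. It was the only tested member whose groups did not overlap in CPM. Of all tested genes, 2.28% had such groups (1.3% higher and 0.977% lower with plive-Tet1). Slc22a4 was lower with plive-Tet1, at 0.898 ± 0.0727 FPKM against 1.04 ± 0.0915 FPKM (SD, n = 4 each), with 39 to 49 counts per library. Per library it measured 1.08, 1.06, 0.90 and 1.10 FPKM with plive-Con and 0.92, 0.93, 0.95 and 0.79 FPKM with plive-Tet1. The log2 fold change was -0.25 ± 0.21 (SE, edgeR unadjusted p 0.256, adjusted p 1.0), and on the deposited FPKM scale plive-Con 3 (0.90) lay within the plive-Tet1 range of 0.79 to 0.95, so the groups overlapped there. Red cell markers, from a lineage that also expresses Slc22a4, summed to between 272 and 400.2 CPM with plive-Con. With plive-Tet1 they summed to between 192 and 284 CPM. Of their 5 genes, the 4 globin genes were lower with plive-Tet1, each at an edgeR unadjusted p under 0.05. The other gene, Alas2, had a log2 fold change of 0.26 (edgeR unadjusted p 0.219). Markers of T, NK and B cells summed to between 36.0 and 79.2 CPM with plive-Con and between 32.8 and 54.2 CPM with plive-Tet1. Again 4 of 5 genes had an edgeR unadjusted p under 0.05, and the median log2 fold change was -0.80. The other gene, Ptprc, was at 0.01. The part of either list in the Slc22a4 values was not tested. Slc22a21, a mouse carnitine carrier between them, measured 0.13 to 0.35 FPKM, and 10.6% of its 100-base windows also occur in another gene's transcripts, those of Slc22a5.

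Slc22a7, an organic anion carrier of the blood side of hepatocytes, measured 12.08, 6.65, 12.20 and 2.19 FPKM with plive-Con and 7.57, 4.94, 5.91 and 6.33 FPKM with plive-Tet1. The plive-Con values enclosed all plive-Tet1 values. Its range was 5.57-fold, wider than in 98.5% of genes, and plive-Con 4 was the lowest library. The log2 fold change was -0.47 ± 0.38 (SE). Without plive-Con 4 it was -0.79 ± 0.23, (edgeR unadjusted p 0.00478, adjusted p 0.9999), and the 3 remaining plive-Con libraries (6.65 to 12.20 FPKM) still overlapped with plive-Tet1 (4.94 to 7.57 FPKM).

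Slc22a18, an imprinted gene of chromosome 7, measured 48.44, 46.95, 51.86 and 36.56 FPKM with plive-Con and 37.28, 38.34, 64.29 and 33.21 FPKM with plive-Tet1. The highest library, plive-Tet1 3, lay far above the other plive-Tet1 libraries, and the log2 fold change of -0.13 became -0.42 without it. Slc22a23, an orphan member with no settled substrate, measured 17.41, 15.96, 19.72 and 19.09 FPKM with plive-Con and 15.46, 21.20, 21.31 and 18.40 FPKM with plive-Tet1 (log2 fold change 0.03 ± 0.14, SE).

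Mouse chromosome 19 holds 8 Slc22a genes between 7650426 and 8605663 on GRCm39, from Slc22a19 to Slc22a6, most of them members of a rodent expansion of organic anion carriers. Of these, 5 were tested. Slc22a30 was the most abundant, at 15.04, 17.27, 19.43 and 6.43 FPKM with plive-Con and 15.28, 13.68, 15.16 and 17.57 FPKM with plive-Tet1, where only plive-Con 4 lay below 13.68 FPKM. Its log2 fold change was 0.04 ± 0.25 (SE) with all libraries and -0.20 ± 0.14 without plive-Con 4. Slc22a27 measured 2.10, 2.98, 1.70 and 3.95 FPKM with plive-Con and 2.09, 3.22, 1.70 and 3.53 FPKM with plive-Tet1, with much the same spread in each group, and its log2 fold change was -0.07 ± 0.29 (SE) with all libraries and 0.20 ± 0.28 without plive-Con 4. Slc22a28 and Slc22a29 stayed between 0.09 and 0.78 FPKM. Reads of this locus are uncertain: 37.0% of the 100-base windows of Slc22a28 and 21.1% of those of Slc22a30 also occur in other genes' transcripts. The genes that share the most of these windows were neighbouring Slc22a genes. The renal carriers Slc22a6 and Slc22a8 of the same locus had 1 and 5 counts over all libraries.

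Slc22a26, also of this locus and low in liver, was listed here, like Slc22a27, among female-biased liver genes. It is named after its values had been seen, because 1 alternative called it. It measured 0.86, 1.00, 0.24 and 2.78 FPKM with plive-Con (44, 47, 13 and 143 counts) and 0.45, 0.73, 0.50 and 0.67 FPKM with plive-Tet1. plive-Con 4 was the highest and plive-Con 3 the lowest of all 8. The log2 fold change of -1.10 ± 0.53 (SE) had an edgeR unadjusted p of 0.0562 (adjusted p 1.0). With no filter on low counts it was -1.12, with an edgeR adjusted p of 0.0348. That fit called 0.469% of 28149 genes, and 5.46% had an unadjusted p under 0.05, against 1 and 7 of 42 members. Without plive-Con 4 it was -0.26 ± 0.40.

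Among the Abcc pumps, Abcc2, which exports bilirubin glucuronides and glutathione conjugates into bile, measured 60.05, 56.95, 62.50 and 53.75 FPKM with plive-Con and 48.34, 62.11, 67.61 and 65.98 FPKM with plive-Tet1. Its log2 fold change was 0.02, with a 95% interval from -0.29 to 0.33. Abcc3, which returns glucuronides and bile acids to the blood, measured 38.77, 36.01, 44.22 and 51.57 FPKM with plive-Con and 34.30, 47.76, 47.83 and 41.49 FPKM with plive-Tet1. The groups overlapped throughout, and the log2 fold change was -0.05, with an interval from -0.40 to 0.30, and 0.07 ± 0.15 (SE) without plive-Con 4. Abcc6, a liver protein needed for ATP release whose loss causes pseudoxanthoma elasticum, measured 16.02, 15.45, 20.13 and 12.61 FPKM with plive-Con and 11.98, 15.25, 19.20 and 15.07 FPKM with plive-Tet1, with means of 16.1 ± 3.10 and 15.4 ± 2.96 FPKM (SD, n = 4 each). Its next gene, Abcc8, the sulfonylurea receptor of pancreatic beta cells, had no count.

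Abcc4, an exporter of bile acids and cyclic nucleotides, measured 2.09, 2.36, 1.05 and 2.25 FPKM with plive-Con and 2.17, 2.59, 2.10 and 2.11 FPKM with plive-Tet1. plive-Con 3 was the low library, and the log2 fold change went from 0.17 ± 0.20 (SE) to -0.04 without it. Abcc5, a cyclic nucleotide exporter, measured 1.53, 2.04, 1.06 and 1.04 FPKM with plive-Con and 1.66, 1.45, 1.54 and 1.66 FPKM with plive-Tet1. Its log2 fold change was 0.13 ± 0.18 (SE) with all libraries and 0.01 ± 0.18 without plive-Con 4. Abcc12, a little studied member, measured 1.03, 1.39, 1.12 and 0.92 FPKM with plive-Con and 0.96, 1.83, 1.5 and 1.49 FPKM with plive-Tet1. It had the smallest p of the pumps, with a log2 fold change of 0.33 ± 0.20 (SE), an edgeR unadjusted p of 0.125 and an adjusted p of 1.0, and 0.26 ± 0.21 without plive-Con 4.

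Abcc9, the regulatory subunit of a potassium channel of vessel wall cells, was the steadiest of the 20 members above 1 FPKM, at 3.32, 3.81, 3.41 and 3.60 FPKM with plive-Con and 3.37, 3.45, 3.06 and 3.87 FPKM with plive-Tet1. Its highest library exceeded the lowest by 1.26-fold. Stellate cell markers (Lrat, Reln, Dcn, Colec11, Des) summed to between 365 and 437.5 CPM with plive-Con and between 345 and 457 CPM with plive-Tet1. Abcc1, an exporter of glutathione conjugates found in many cell types, and Abcc10 stayed below a mean of 1 FPKM, with log2 fold changes of 0.20 and -0.24.

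The library plive-Con 4 was outside the range of the other 7 libraries for 11 of the 20 members above 1 FPKM, above it for 6 and below it for 5. Over the 10924 genes of that level, plive-Con 4 was above the others in 15.1% and below them in 23.8%. Other libraries were at an extreme too: plive-Con 3 was highest for 5 and lowest for 3 of the 20 members (5.58% and 18.9% of the 10924 genes), and plive-Tet1 1 was lowest for 7 (10.6%). The members above were Slc22a5, Slco1a4, Slc22a27, Slco2a1, Abcc3 and Slco2b1, at 2.23, 2.14, 1.88, 1.75, 1.24 and 1.24 times the median of the other 7. Those below were Slco1a1, Slc22a7, Slc22a30, Abcc12 and Abcc5, at 0.205, 0.329, 0.421, 0.662 and 0.675 times that median. Female-biased liver genes that are not members (Acot3, Cyp2b9 and Cyp17a1, besides Cyp3a41a and Sult3a1, which had no count) summed to 285 CPM in plive-Con 4 and to between 18.1 and 63.2 CPM in the other libraries. Male-biased ones (Mup20, Cyp2d9, Cyp4a12a, Cyp7b1, Elovl3, Hsd3b5) summed to 1444 CPM in plive-Con 4 and to between 2548 and 4522 CPM elsewhere. Mup20 led this sum, at 1216.27 FPKM in plive-Con 4, where the others had at most 72.94 FPKM. Only Cyp4a12a was not lowest in plive-Con 4, at 16.45 FPKM against 14.62 and 15.49 in plive-Con 1 and 2. Its means were 16.4 ± 1.94 FPKM with plive-Con and 33.0 ± 4.51 with plive-Tet1 (SD, n = 4 each, edgeR adjusted p 0.271). Cux2, a transcription factor of female mouse liver, measured 0.95 FPKM in plive-Con 4 and between 0.03 and 0.07 FPKM in the others. The part of these genes in the transporter values was not tested.

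**Figure D4:**
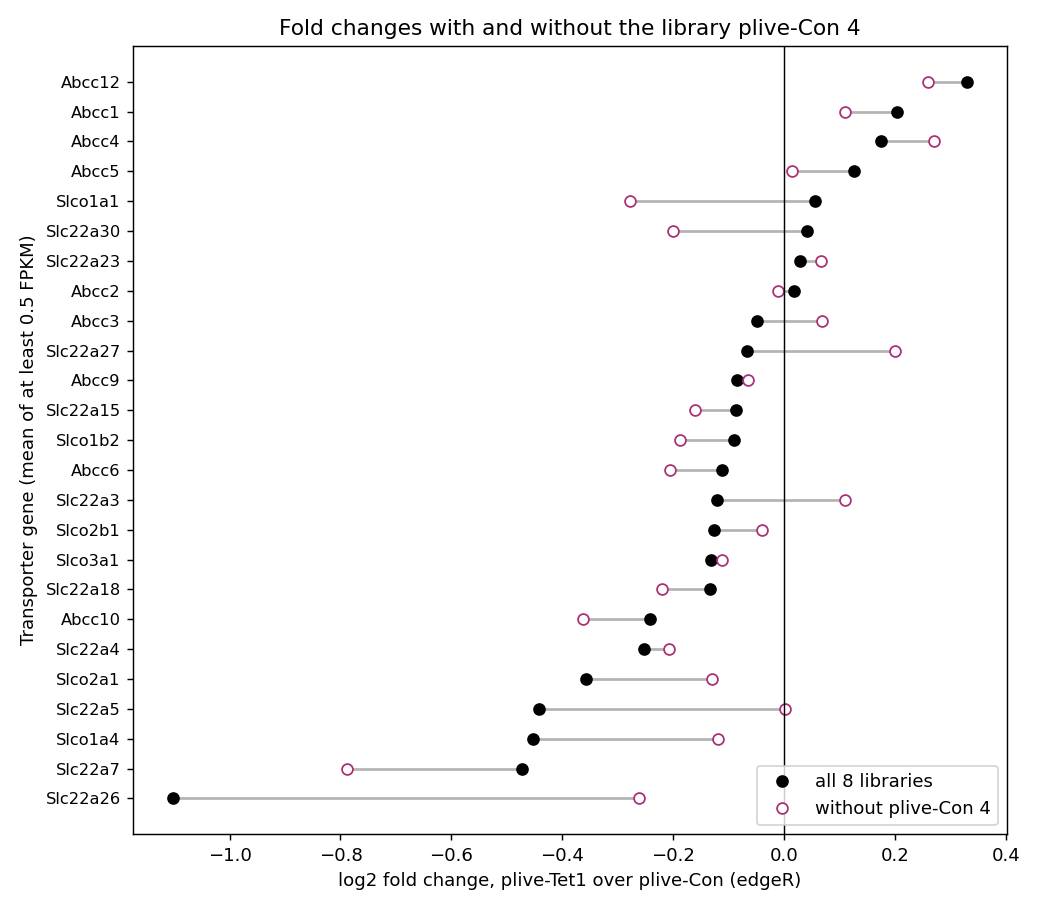
Log2 fold change (x axis) between plive-Tet1 and plive-Con of 25 tested transporter genes with a mean of at least 0.5 FPKM (y axis), from edgeR with all 8 libraries (filled) and without plive-Con 4 (open). Leaving out that library moved Slc22a26 from -1.10 to -0.26, Slc22a5 from -0.44 to 0.00, Slco1a4 from -0.45 to -0.12 and Slc22a7 from -0.47 to -0.79, and turned Slco1a1 from 0.06 to -0.28.

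The remaining members were low. Of the 21 genes that were not tested, 9 had no count in any library, among them Slco6b1, Slco6c1 and Slco6d1, known from testis, and Slc22a19, Slc22a20, Slc22a22 and Slc22a16. A count of 0 allows up to 3 counts, between 0.151 and 0.189 CPM in a library, which covers counting error only. The other 12 had between 1 and 46 counts over the 8 libraries. The highest of them was Slco4a1, a thyroid hormone carrier, with 11, 10, 2 and 9 counts with plive-Con and 3, 3, 4 and 4 with plive-Tet1. Slc22a17, a lipocalin receptor, was tested at 0.07 to 0.26 FPKM, with a log2 fold change of -0.72 ± 0.39 (SE, edgeR unadjusted p 0.0854).

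Other transport proteins of the hepatocyte and the factors known to control these genes did not pass the test either. Of 22 tested transport genes outside the 3 families, 0 passed, 13 had a log2 fold change above 0 and 9 below it, with a median of 0.03. An edgeR unadjusted p under 0.05 was found for 3 of the 22 (Abcg5, Abcg8 and Slc16a1) and for 4.07% of all tested genes. The 4 with the smallest p were Abcg5 and Abcg8, the subunits of the biliary sterol exporter, Slc16a1, a lactate and ketone body carrier, and Slc10a1, the sodium-dependent bile acid uptake carrier. Slc10a1 measured 82.79, 73.54, 125.07 and 123.80 FPKM with plive-Con and 59.95, 69.64, 84.48 and 93.17 FPKM with plive-Tet1, groups that overlapped, with a log2 fold change of -0.46 ± 0.21 (SE, edgeR unadjusted p 0.0526, adjusted p 1.0). Abcg5 measured 17.52, 18.41, 23.30 and 22.97 FPKM with plive-Con and 12.88, 12.05, 14.77 and 14.93 FPKM with plive-Tet1. Every plive-Tet1 library lay below every plive-Con library on this scale, and the log2 fold change was -0.64 ± 0.15 (SE, edgeR unadjusted p 0.000927, adjusted p 0.957). Abcg8 measured 16.89, 13.37, 22.66 and 17.78 FPKM with plive-Con and 12.11, 11.67, 16.12 and 13.60 FPKM with plive-Tet1, groups that overlapped, with a log2 fold change of -0.46 ± 0.18 (SE, edgeR unadjusted p 0.0253, adjusted p 1.0). Slc16a1 measured 17.78, 20.15, 19.35 and 19.49 FPKM with plive-Con and 25.43, 29.64, 17.86 and 25.75 FPKM with plive-Tet1, where plive-Tet1 3 lay within the plive-Con range, with a log2 fold change of 0.31 ± 0.14.

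Of 25 tested regulators, 0 passed, 8 had a log2 fold change above 0 and 17 below it, with a median of -0.04. An edgeR unadjusted p under 0.05 was found for 3 of the 25 (Nr1i3, Cux2 and Ahr, below), against 4.07% of all tested genes. Nr1i3, the drug-sensing receptor CAR, measured 10.39, 14.05, 15.61 and 19.96 FPKM with plive-Con and 8.13, 10.22, 10.66 and 10.97 FPKM with plive-Tet1, groups that overlapped. Its log2 fold change was -0.64 ± 0.19 (SE, edgeR unadjusted p 0.00495, adjusted p 1.0). Ahr, the aryl hydrocarbon receptor, measured 4.08, 4.92, 5.86 and 3.73 FPKM with plive-Con and 5.48, 5.56, 6.62 and 10.36 FPKM with plive-Tet1, a log2 fold change of 0.55 ± 0.22 (SE). Nr0b2, the repressor SHP, measured 12.55, 5.89, 15.80 and 15.72 FPKM with plive-Con and 9.07, 6.27, 6.59 and 11.39 FPKM with plive-Tet1, a log2 fold change of -0.65 ± 0.30 (SE). Both pairs of groups overlapped. Cux2 measured 0.07, 0.06, 0.04 and 0.95 FPKM with plive-Con and 0.07, 0.03, 0.04 and 0.03 FPKM with plive-Tet1, a log2 fold change of -2.85 with plive-Con 4 far above the rest. Nr1i2, the drug-sensing receptor PXR, named after its values had been seen, measured 49.11 FPKM in plive-Con 4 and between 18.07 and 27.49 FPKM in the other 7 libraries. The log2 fold change was -0.04 for Nr1h4, the bile acid receptor, and 0.12 for Ppara, the fatty acid receptor.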

How the data were processed

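Total liver RNA was sequenced as 8 libraries from both fragment ends, per the labels' protocols. The submitters' processing notes list cutadapt 1.9.1, HISAT2 2.2.1, HTSeq 0.6.1 and GRCm39. The sources used here name no annotation release, strand setting or counting mode. The authors deposited raw read counts and FPKM per gene and library, per the file headers. The deposited FPKM equals count over exonic length and library total, within 0.00500.

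Groups came from the sample titles. The labels do not state that libraries are separate animals, so p-values measure the spread between libraries. Libraries of a group differed by more than counting error (chi-square over its degrees of freedom at least 12.9).

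Counts were tested with edgeR 4.0.16 (R 4.3.3; filterByExpr, TMM, quasi-likelihood, group only, two-sided), with p-values adjusted over all 14533 tested genes at 0.05. SE and 95% intervals were derived from that test's statistic. The test was first tested on simulated data. DESeq2 1.42.0 and limma 3.58.1 (log2 of FPKM plus 0.5 or 1) were alternatives, besides DESeq2's size factors, no filter, a replicate block and leaving out single libraries.

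Values per library are given for members with a mean of at least 1 FPKM, an unadjusted p under 0.05 or groups that do not overlap in CPM, and the 4 smallest p of each further list. Members and lists were chosen with earlier results of these data known. Shared 100-base windows were counted in GENCODE M21 transcripts, whose coordinates were not used. Values of 1 member and 1 marker gene are not reported here, though counts of members include that member.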

Additional observations from a re-analysis of the deposited data

Results flagged for a closer look

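In groups of 4, a library was marked where its gap to the nearest other exceeded Dixon's 95% critical share of the group's range. Of 42 groups of values from 21 members, 5 had such a library, and chance marks about 1 in 20. Within plive-Con, plive-Con 4 was far above the others for Slc22a5 (26.64 FPKM) and Slco1a4 (17.32 FPKM). Within plive-Tet1, plive-Tet1 3 was high for Slc22a18 (64.29 FPKM), plive-Tet1 4 for Slco1a4 (11.47 FPKM) and plive-Tet1 2 for Abcc4 (2.59 FPKM).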

How the results depend on the processing

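No member was called under DESeq2's size factors, DESeq2, limma with either pseudocount or with any library left out. With no filter on low counts edgeR called 132 genes of all tested and 1 member, Slc22a26 (-1.12, adjusted p 0.0348), with 7 members at an unadjusted p under 0.05 of 42. DESeq2 called 11 of all tested genes and 0 members. Same-numbered libraries did not deviate together (correlations from -0.0309 to 0.0788), which shows no pairing by number but cannot exclude it. The edgeR fit with the replicate block called 0 genes and 0 members, with 1 member at an unadjusted p under 0.05. Of the members, 0 instead of 1 had groups that did not overlap on the deposited FPKM scale. From 1 to 3 did so when each library was left out (2 or 3 without plive-Con 1 or 3 or without plive-Tet1 1, 3 or 4). Groups separate more easily with a library fewer, and the share over all tested genes was not taken in these settings. No result about the members is drawn from these counts. Without plive-Tet1 2, 293 in place of 591 of all genes had an unadjusted p under 0.05. By summed CPM in place of FPKM the leading shares were 50.2% for Slco1b2 and 54.7% for Abcc2. Abcc3 had a log2 fold change of 0.0074 in both limma fits, against -0.05. With each library left out in turn, 11 of the 21 members followed in this way changed sign, and Slc22a3, not among the 21, went from -0.12 to 0.11 without plive-Con 4. The log2 fold changes of the 11 ranged from -0.59 to 0.0022 for Slc22a5, from -0.15 to 0.0674 for Abcc3, from -0.0626 to 0.11 for Abcc2, from -0.32 to 0.0584 for Slco3a1, from -0.34 to 0.17 for Slco1b2 and from -0.26 to 0.0205 for Abcc6. They ranged from -0.0441 to 0.27 for Abcc4, from -0.0565 to 0.12 for Slc22a23, from -0.28 to 0.56 for Slco1a1, from -0.20 to 0.23 for Slc22a30 and from -0.26 to 0.20 for Slc22a27. The cause was not tested. The 95% intervals ran from -0.71 to 0.21 for Slc22a4 (39 to 49 counts per library) and from -0.89 to 1.00 for Slco1a1. Differences within them are compatible with these data. The intervals are per gene and unadjusted, and they are not limits of detection.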
